A study of Mus musculus with 4 samples.

Results

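The transcripts described here are those of 34 genes that skeletal muscle uses to contract, measured in RNA of mouse liver. The 34 gene symbols were listed with the values of these arrays already known, because transcripts of this kind stood high on 1 of them. All 34 had a probe set on the array, among 22180 genes that could be named, and where several probe sets served 1 gene the one with the highest mean was used. The values that chose the genes are the values given below, so every difference is a description and none has a test.

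The study profiled total liver of C57Bl6 mice aged 16 weeks on 4 Affymetrix arrays. All mice carried MyD88 lox/lox, a floxed allele of the adaptor gene of Toll-like and interleukin-1 receptors, and the labels list no Cre for the mice called wild type. The liver knockout mice had the genotype ALB Cre MyD88 lox/lox, in which the albumin promoter drives Cre in hepatocytes, so non-hepatocyte cells keep the gene. Both genotypes were split between the control diet (9.4% fat) and the high-fat one (60% fat), which makes 4 groups. Every array held RNA pooled from 4 to 5 mice that had been selected for RNA quality, so each group is 1 array with no replicate and the spread between mice is unknown. The number of arrays limits the precision.

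The contractile unit of skeletal muscle, the sarcomere, slides thick filaments of myosin along thin filaments of actin. Calcium released from the sarcoplasmic reticulum binds troponin on the thin filament and starts the movement, and a calcium pump ends it. Fast and slow fibres use different isoforms of most of these proteins. Hepatocytes are not known to build sarcomeres, whereas carbonic anhydrase 3, encoded by Car3, is abundant in mouse liver as well as in muscle and fat.

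The array of wild-type mice on high-fat diet stood apart. On it 27 of the 34 genes had their highest log2 value, against 2 on the wild-type control array, 1 on the knockout control array and 4 on the knockout high-fat array. Of all 22180 genes, 25.3% had their highest value on the wild-type high-fat array. The lead over the next array was only 0.0004 log2 for Neb and 0.02 for Tnnc1, so some of the 27 are near ties. Over the 34 genes the median lead was 0.15. With the probe sets of a gene averaged, 26 were highest there. The mean log2 value of the 34 genes without Car3 was 3.74 on the wild-type control array, 3.73 on the knockout control array, 4.25 with high-fat diet in wild type and 3.73 with it in knockout. The other 3 arrays lay close together: their spread (highest minus lowest log2 value) had a median of 0.20 over the 34 genes and 0.21 over all genes. Which cells these transcripts came from was not tested. In bulk RNA, a larger number of the cells that hold them and more RNA per cell cannot be told apart.

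**Figure D1:**
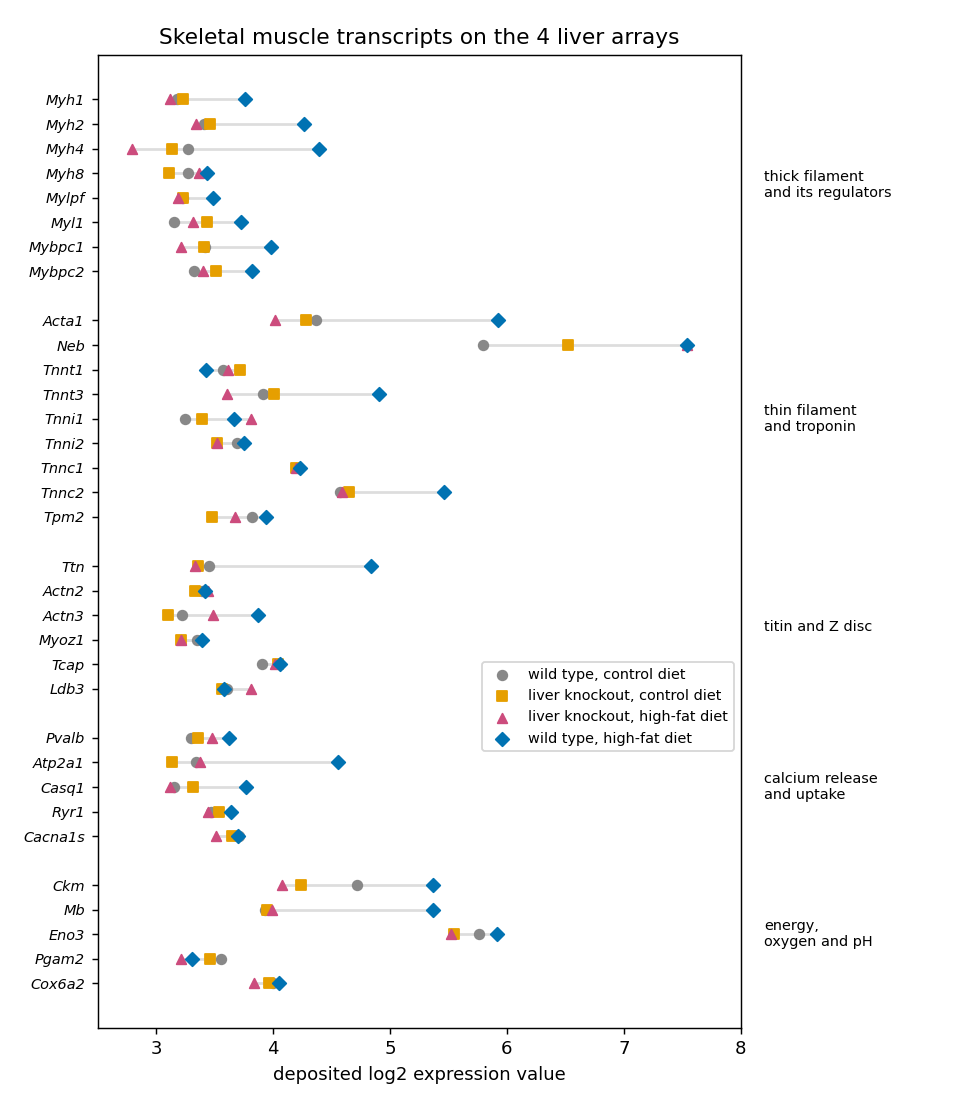
Deposited log2 expression value (horizontal axis) of 33 of the 34 genes, grouped by role; Car3, near 12 to 13, is left out so that the scale can be read. Each symbol is 1 array of pooled RNA and there are no error bars. The blue diamonds of the wild-type high-fat array lie to the right of the other arrays for Acta1, Ttn, Mb, Atp2a1 and Myh4, while genes such as Tnnc1 have all 4 symbols together.

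The genes that stood highest on that array were also compared by the sequence before their start sites. The promoter table of RefSeq (build GRCm38.p6) held 26 of the 34 genes, of which 4 had several starts. The 250 bases upstream of the start are shown for the 4 genes that were at least 2-fold higher on the wild-type high-fat array than on each other array and had 1 annotated start; Mb, the 1 further such gene, has several and is not shown. They are given 5′ to 3′ in the direction of transcription, and capitals mark matches on either strand to 5 motifs: the E-box CANNTG bound by myogenic factors such as MyoD, the TATA box TATAAA, the MCAT box CATTCC, the CArG box of serum response factor and the MEF2 site.

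Acta1, chr8:123894776-123895025, strand minus: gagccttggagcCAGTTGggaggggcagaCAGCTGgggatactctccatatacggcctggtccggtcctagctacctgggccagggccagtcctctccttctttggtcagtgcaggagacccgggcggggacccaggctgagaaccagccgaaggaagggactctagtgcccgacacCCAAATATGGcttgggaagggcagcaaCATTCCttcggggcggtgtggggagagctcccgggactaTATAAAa
Ttn, chr2:76982548-76982797, strand minus: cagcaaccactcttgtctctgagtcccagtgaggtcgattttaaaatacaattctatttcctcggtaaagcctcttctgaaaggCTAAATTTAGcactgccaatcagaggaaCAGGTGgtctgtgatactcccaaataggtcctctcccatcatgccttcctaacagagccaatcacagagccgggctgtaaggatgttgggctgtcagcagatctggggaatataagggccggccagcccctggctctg
Myh4, chr11:67237562-67237811, strand plus: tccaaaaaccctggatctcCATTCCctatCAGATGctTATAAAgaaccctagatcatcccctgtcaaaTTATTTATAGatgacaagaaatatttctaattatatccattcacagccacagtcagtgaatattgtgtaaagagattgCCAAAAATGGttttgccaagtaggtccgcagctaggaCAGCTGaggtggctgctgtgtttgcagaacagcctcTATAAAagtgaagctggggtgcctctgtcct
Atp2a1, chr7:126463074-126463323, strand minus: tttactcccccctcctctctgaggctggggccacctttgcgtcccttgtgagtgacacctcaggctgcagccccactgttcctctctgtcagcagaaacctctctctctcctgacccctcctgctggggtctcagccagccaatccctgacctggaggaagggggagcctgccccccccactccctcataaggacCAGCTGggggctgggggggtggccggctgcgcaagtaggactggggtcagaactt

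The Acta1 promoter held a CArG box between bases -73 and -64 from the start, an MCAT box from -46 to -41, a TATA box from -7 to -2 and 2 E-boxes. The Myh4 promoter held matches to all 5 motifs, and its MEF2 match overlapped 1 of its 3 TATA matches. The Ttn promoter held 1 MEF2 site and 1 E-box, and the Atp2a1 promoter 1 E-box. Among the 26 genes with a promoter in the table, counting every start, a CArG box was found in 3, a MEF2 site in 6, a TATA box in 6, an MCAT box in 8 and an E-box in 22. Of all 32851 promoters of the table, 1.47% held a CArG box, 2.92% a MEF2 site, 12.4% a TATA box, 12.6% an MCAT box and 66.2% an E-box. The counts are per gene and these shares per promoter, so they differ in unit for genes with several starts. A match describes the letters of this window and is no evidence that a factor binds there.

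Among the thick filament genes, those of the adult fast myosin heavy chains were highest on the wild-type high-fat array. Myh4, the heavy chain of the fastest (type IIb) fibres, had a log2 value of 3.27 on the wild-type control array, 3.13 on the knockout control array, 4.40 with high-fat diet in wild type and 2.80 with it in knockout. The wild-type high-fat value lay 2.18-fold above the next array. Myh2, the type IIa heavy chain, was 3.41, 3.46, 4.27 and 3.34 in the same order of arrays, which is kept below, and Myh1, the type IIx heavy chain, was 3.18, 3.23, 3.76 and 3.12. Myh8, the perinatal heavy chain, was 3.28, 3.11, 3.44 and 3.36, so its wild-type high-fat value was within 0.08 of the next. A second Myh8 probe set was 3.46, 3.27, 3.16 and 3.11, highest in wild type on control diet, so the 2 disagreed. These 4 genes lie side by side on 1 chromosome between Myh3, the embryonic heavy chain, at 3.27 to 3.34 on the 4 arrays, and Myh13, the heavy chain of eye and laryngeal muscle, at 3.01 to 3.38. The heavy chain genes are close copies of each other, so their probe sets may share signal and the split among them is uncertain.

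The smaller parts of the thick filament were dim on all arrays and highest on the wild-type high-fat array, by less than 2-fold. Mybpc1, the slow type of myosin-binding protein C, was 3.42, 3.41, 3.99 and 3.22, a margin of 0.57 against 0.54 for Myh1, and Mybpc2, the fast type, 3.32, 3.51, 3.82 and 3.40. The fast light chain genes Myl1 and Mylpf were 0.29 and 0.26 above the next array on the log2 scale. All 8 thick filament genes were highest on the wild-type high-fat array, 1 of them (Myh4) by at least 2-fold.

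Of the thin filament genes, Acta1 had the largest margin of all 22180 genes on the wild-type high-fat array. Acta1 encodes skeletal muscle alpha-actin, and its log2 values were 4.37, 4.28, 5.93 and 4.02, which puts wild type on high-fat diet 2.95-fold above the next array. Tnnt3, the fast troponin T that anchors the complex to tropomyosin, was 3.92, 4.01, 4.90 and 3.61, and Tnnc2, the fast calcium-binding subunit, was 4.57, 4.65, 5.46 and 4.59. Tnni2, the fast inhibitory subunit, was flat in comparison at 3.69, 3.52, 3.75 and 3.52.

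The slow partners of these troponins did not follow. Tnnc1 was 4.22, 4.20, 4.23 and 4.20, Tnnt1 was 3.57, 3.71, 3.43 and 3.62, and Tnni1 was 3.24, 3.40, 3.67 and 3.81. Tnnt1 was lowest with high-fat diet in wild type, and Tnni1 was higher on both high-fat arrays than on both control arrays. Tpm2, the gene of beta-tropomyosin, which smooth muscle also uses, was 3.82, 3.48, 3.94 and 3.67.

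Neb had the largest diet difference of the 34 genes in both genotypes. It encodes nebulin, a giant protein along the thin filament, and its log2 values were 5.80, 6.52, 7.54 and 7.54. It was thus higher on both high-fat arrays than on both control arrays, and equal in both genotypes on high-fat diet at this precision. With the control diet it was 0.73 higher in knockout. Both high-fat values also lay above both control values for other genes, among them Tnni1, Actn3, Pvalb and Car3. No other gene of the 34 had a 2-fold higher value with high-fat diet in knockout, and that of Neb, 1.02, fell to 0.97 under cyclic loess and 0.98 under repeated quantile normalisation.

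Ttn led the genes of the elastic filament and the Z disc, the plate that anchors the thin filaments. Ttn, encoding titin, the spring that gives the sarcomere its elasticity, was 3.45, 3.36, 4.84 and 3.34, 2.62-fold above the next array in wild type on high-fat diet. Actn3, the alpha-actinin of fast fibres, was 3.23, 3.10, 3.87 and 3.48, higher on both high-fat arrays than on both control arrays. Actn2, the other muscle alpha-actinin, ranged from 3.33 to 3.45, and Myoz1, Tcap and Ldb3, which encode Z disc proteins, stayed within a range of 0.25 log2 each.

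In calcium handling the pump gene stood out from the release machinery. Atp2a1, encoding the fast-fibre pump SERCA1, was 3.35, 3.14, 4.56 and 3.38, 2.27-fold above the next array in wild type on high-fat diet. Casq1, the calcium store protein calsequestrin of fast fibres, was 3.16, 3.32, 3.77 and 3.12, and Pvalb, the calcium buffer parvalbumin, was 3.30, 3.36, 3.62 and 3.48. Ryr1, the release channel, ranged from 3.44 to 3.64, and Cacna1s, its voltage sensor, from 3.51 to 3.71. A second Ryr1 probe set was 3.52, 3.51, 3.28 and 3.62, lowest in wild type on high-fat diet. For these 2 channel genes the wild-type high-fat array did not stand clear of the others.

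The genes of energy and oxygen supply were divided. Mb, encoding the oxygen store myoglobin, was 3.93, 3.95, 5.37 and 3.99, with the wild-type high-fat array 2.59-fold above the next and the other 3 within 0.06. Ckm, encoding muscle creatine kinase, which buffers ATP, was 4.72, 4.24, 5.37 and 4.08, so the wild-type array was above the knockout array on both diets. A second Ckm probe set lay between 3.43 and 3.51 on all arrays and did not show this.

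The other genes of this group differed less or in another way. Car3 was 12.48, 12.30, 12.83 and 12.97, above both control values on both high-fat arrays, and its highest array was knockout on high-fat diet. A second Car3 probe set was 10.07, 10.06, 10.48 and 10.03, highest in wild type on high-fat diet, so the 2 probe sets disagreed on the order. Eno3, the beta-enolase of glycolysis, was 5.76, 5.55, 5.91 and 5.52, Cox6a2, a muscle subunit of cytochrome c oxidase, ranged from 3.84 to 4.05, and Pgam2, the muscle phosphoglycerate mutase, from 3.22 to 3.56 with its highest value in wild type on control diet.

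**Figure D2:**
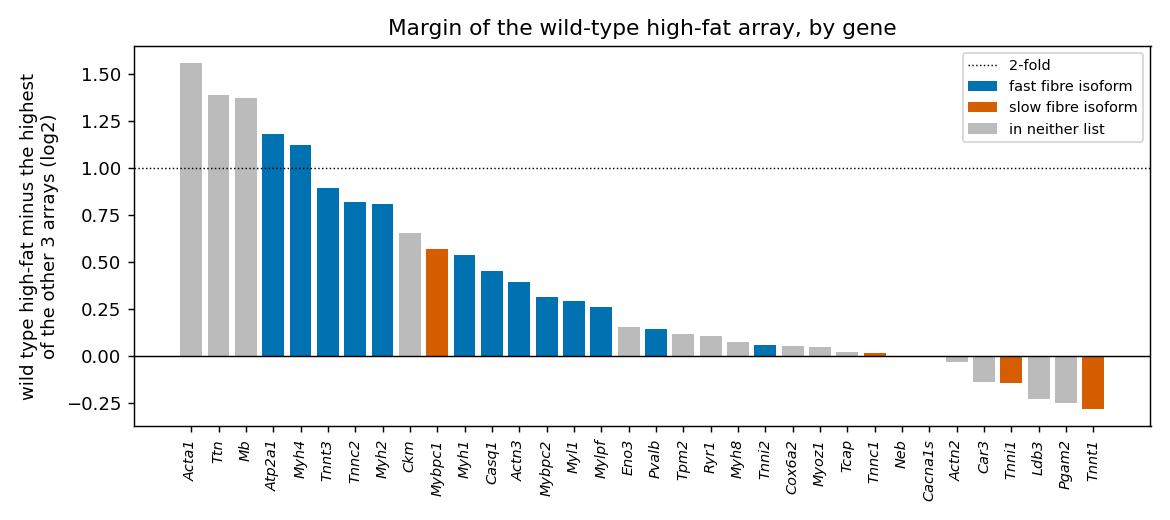
Log2 value on the wild-type high-fat array minus the highest of the other 3 arrays (vertical axis) for each of the 34 genes, in falling order; bars are single differences of pooled arrays with no error. Blue marks isoforms of fast fibres, orange those of slow fibres and grey genes in neither list, and the dotted line is 2-fold; all 13 blue bars lie above 0, and 5 genes pass the line.

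By this margin 5 of the 34 genes (Acta1, Ttn, Mb, Atp2a1 and Myh4) were at least 2-fold above every other array in wild type on high-fat diet, where 0.0316% of all genes, 7 in number, were so. None of the 34 stood out to this extent on another array, where the shares of all genes were 0.0496% on the wild-type control, 0.0271% on the knockout control and 0.0451% on the knockout high-fat array. At 1.5-fold the count was 9, with Tnnt3, Tnnc2, Myh2 and Ckm added, where 0.0857% of all genes, 19 in number, passed. Nothing is read from these shares, since the genes were listed for this pattern. The probe sets behind the 5 genes are 17513995 for Acta1, 17386778 for Ttn, 17318741 for Mb, 17496211 for Atp2a1 and 17251091 for Myh4. Just inside the 2-fold line lay Myh4 with a margin of 1.12 log2, and just outside it Tnnt3 with 0.89. For Ttn, Atp2a1 and Myh4 the values on the other 3 arrays, at most 3.45, lay below the array medians of 3.53 to 3.56. Signal over background is unknown there, so the fold values of these genes are uncertain.

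The isoforms of fast and slow fibres were also read by this margin, from genes that were not chosen alike. All 13 fast-fibre genes are among the 34 listed for this pattern, whereas 7 of the 11 slow-fibre genes were added from outside them, so nothing is read from the comparison. The 13 fast-fibre genes were all highest on the wild-type high-fat array, with margins from 0.06 (Tnni2) to 1.18 (Atp2a1) and a median of 0.45. Of the 11 slow-fibre genes 4 were highest there, 2 of the 4 among the 34 and 2 of the 7 outside them, and the margins ran from -0.29 (Tnnt1) to 0.57 (Mybpc1) with a median of -0.02. Over all genes the median margin was -0.11. The 7 slow-fibre genes outside the 34 included Myh7, the slow myosin heavy chain, at 3.35, 3.23, 3.43 and 3.47, and Myl2, a slow light chain also used in heart, at 3.46, 3.34, 3.43 and 3.23. Another of the 7, Atp2a2, the slow-fibre calcium pump that liver also expresses, was 9.57, 9.59, 9.31 and 9.19.

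The first comparison of the design sets high-fat against control diet. In wild type, 30 of the 34 genes were higher on high-fat diet and 4 lower, with a median log2 difference of 0.39 against 0.00 over all genes. A 2-fold difference or more was reached by 6, all higher: Neb (1.75), Acta1 (1.56), Mb (1.44), Ttn (1.39), Atp2a1 (1.21) and Myh4 (1.12); Tnnt3, at 0.99, fell just short. Among all genes, 0.302% were 2-fold higher or more in this comparison. None of the 34 was 2-fold lower, as 0.338% of all genes were. In knockout, 14 were higher and 20 lower, with a median of -0.03 against 0.01 over all genes. Neb alone reached 2-fold upwards, by 1.02, as 0.194% of all genes did, but not under cyclic loess (0.97) or repeated quantile normalisation (0.98); none of the 34 was among the 0.171% of genes that reached it downwards. Acta1 differed by -0.27, Myh4 by -0.34, Tnnt3 by -0.40, Ttn by -0.03 and Mb by 0.04 in knockout.

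**Figure D3:**
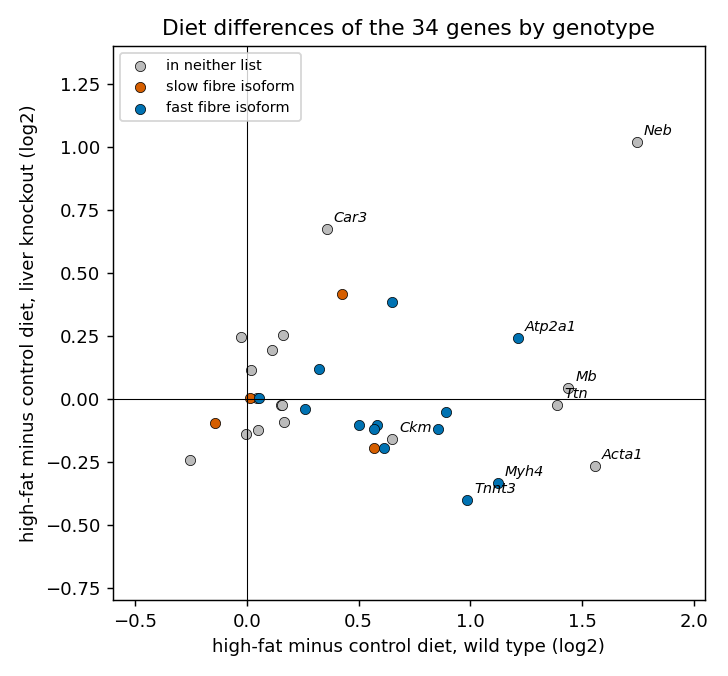
Log2 difference between high-fat and control diet in wild type (horizontal axis) and in liver knockout (vertical axis) for each of the 34 genes, 1 point per gene from 2 arrays each way and no error bars. Most points spread to the right along the zero line of the vertical axis, as Mb and Ttn do, and Neb lies above 1 on both axes.

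The second comparison sets knockout against wild type. On control diet none of the 34 genes differed by 2-fold in either direction, which 0.207% of all genes did upwards and 0.0947% downwards. The median log2 difference was -0.03 against 0.00 over all genes, and the ends of the range were Ckm at -0.48 and Neb at 0.73. On high-fat diet 29 of the 34 were lower in knockout and 5 higher, with a median of -0.28 against 0.00 over all genes. At least 2-fold lower were 7: Acta1 (-1.91), Myh4 (-1.60), Ttn (-1.50), Mb (-1.37), Tnnt3 (-1.30), Ckm (-1.29) and Atp2a1 (-1.18), where 0.108% of all genes were so. With its probe sets averaged Ckm came to -0.68 and the count to 6. None of the 34 was at least 2-fold higher, where 0.135% of all genes were. This comparison and that of diet in wild type both subtract with the wild-type high-fat array, so they are not independent. The comparisons without that array, diet in knockout and genotype on control diet, held 1 and 0 genes at 2-fold.

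Further genes of muscle were read from lists that hold none of the 34. Of 130 measured genes, none differed by 2-fold in any of the 4 comparisons. Of all genes, 0.0947% to 0.338% did so per comparison and direction, so little is read from this. Of the 130, 49 were highest in wild type on high-fat diet and 1 had a margin of 1.5-fold there, against 25.3% and 0.0857% of all genes. That 1 was Ckmt2, the mitochondrial creatine kinase of muscle, at 3.26, 3.32, 3.93 and 3.12. Ankrd23, encoding a titin-associated protein, was 3.96, 3.89, 4.43 and 3.84, and Nrap, a nebulin-related anchoring protein, 3.47, 3.41, 3.93 and 3.48. Other genes of the 130 went the other way. High-fat minus control diet in wild type was -0.72 for Mef2d, -0.63 for Ppp1r3c and -0.57 for Gpd1, against 0.66 for Ckmt2. The median of this difference over the 130 was 0.04. Among 40 other genes of the sarcomere and Z disc 17 were highest on the wild-type high-fat array, among 34 of excitation and membrane 9, among 38 of energy metabolism 17, and among 20 of the myogenic programme 7. For excitation and membrane this is close to the share of all genes. Some genes stand in more than 1 of these lists, so the list counts do not add up to those over the 130. Myod1, the master regulator of muscle fate, was 3.66, 3.83, 3.65 and 3.78, and Myog, which drives fusion and differentiation, 3.90, 4.06, 4.10 and 4.13. Probe sets for 7 muscle microRNA genes, added after the values were seen and including Mir206 and Mir133b, lay between 2.82 and 3.37 on all arrays.

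Markers of tissues next to skeletal muscle or the liver surface were read in the same way. Of all genes, 25.3% were highest with high-fat diet in wild type. Of 12 cardiac genes none was highest there, and Myh6, a cardiac heavy chain, was 3.47, 3.27, 3.28 and 3.23. Some of the 12, such as Myh7 and Myl2, are also among the further muscle and slow-fibre genes above, so these readings are not independent. Of 11 smooth muscle genes 6 were highest there. The largest margins were 0.50 log2 for Cnn1, a calponin, 0.41 for Acta2, smooth muscle actin, which activated stellate cells also express, and 0.37 for Mylk, the light chain kinase. None of the 11 had a 2-fold margin, as 0.0316% of all genes did. The other 5 were not highest there. Among them Tagln, encoding transgelin, was lowest on that array at 4.26, 4.46, 4.10 and 4.28, and Smtn, encoding smoothelin, had a margin of -0.21. Of 6 mesothelial genes, which line the surfaces of liver and diaphragm, 5 were highest there, by at most 0.39 (Wt1). The list means on the 4 arrays were 3.49, 3.48, 3.42 and 3.44 for heart, 4.19, 4.23, 4.38 and 4.25 for smooth muscle, and 3.57, 3.53, 3.78 and 3.54 for mesothelium. Their part in the muscle result was not tested.

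**Figure D4:**
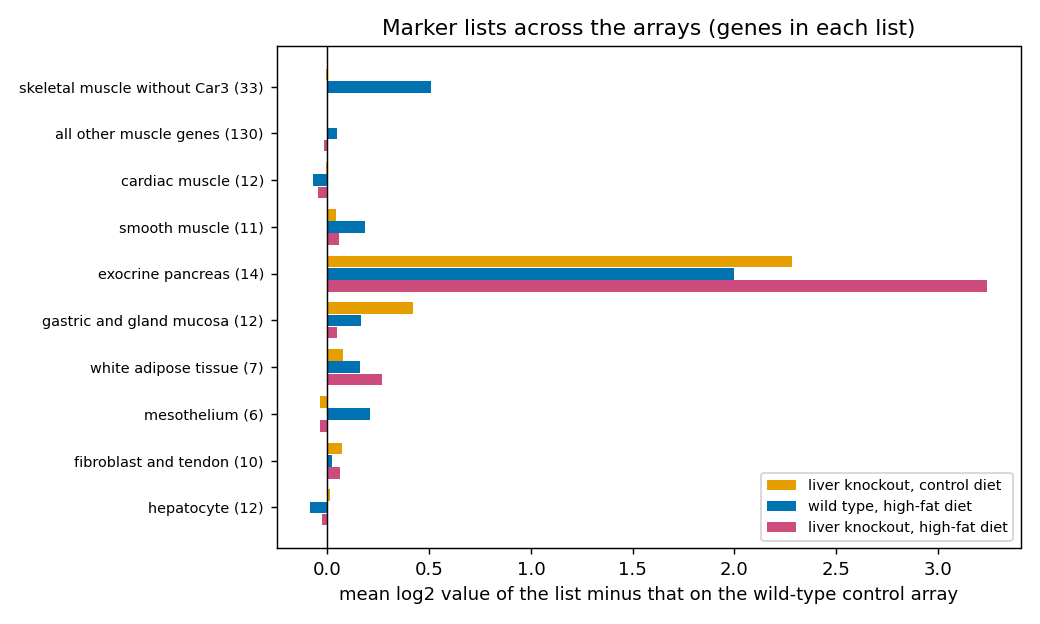
Mean log2 value of each list minus its mean on the wild-type control array (horizontal axis), for the other 3 arrays; bars are single pooled arrays with no error, and the number of genes in each list stands in brackets. The skeletal muscle bar is long on the wild-type high-fat array alone, the exocrine pancreas bars are long on all 3 arrays and longest in knockout on high-fat diet, and gastric mucosa is highest in knockout on control diet.

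Exocrine pancreas transcripts and 2 genes of the gastric list were unevenly spread over the arrays, in another order. The mean log2 value of 14 measured exocrine pancreas genes of 17 listed was 5.06, 7.34, 7.06 and 8.30, lowest in wild type on control diet. None of the 14 was highest on the wild-type high-fat array, as 25.3% of all genes were. Of 12 gastric and gland mucosa genes, Muc6, a gastric mucin, was 3.44, 5.57, 3.42 and 3.51 and Tff2, a mucus-stabilising peptide, 4.09, 5.98, 4.82 and 4.63, both highest in knockout on control diet. The other 10 did not reach 2-fold in any comparison, and 4 of them, Gkn1, Pgc, Cblif and Lipf, were highest on the wild-type high-fat array, by at most 0.31. The array with the high muscle values was thus neither the highest for pancreas nor for Muc6 and Tff2. With high-fat diet in wild type 13 of 14 pancreas genes were at least 2-fold higher, as 6 of the 34 muscle genes and 0.302% of all genes were. Between the genotypes on high-fat diet knockout was at least 2-fold higher for 11 of 14 pancreas genes and for 0.135% of all genes, and at least 2-fold lower for 7 of the 34 muscle genes. Their part in the muscle result was not tested.

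In the remaining lists 1 gene, of the brown adipose list, reached 2-fold in a comparison. Of all genes, 0.0947% to 0.338% did so per comparison and direction. The defining fat gene Adipoq (adiponectin) was 3.12, 3.30, 3.31 and 3.30. None of 7 white adipose genes reached 2-fold, and the one that differed most, Fabp4, was 6.10, 6.31, 6.43 and 7.07. Among 6 brown adipose genes Ucp1 ranged from 3.31 to 3.55, and Elovl3, a fatty acid elongase that hepatocytes also express, differed with diet in wild type by -1.47. None of 6 peripheral nerve genes, 10 fibroblast and tendon genes, 6 skin genes or the 1 measured erythroid gene reached 2-fold. Hepatocyte markers matched the labelled tissue on every array, with a mean log2 value of 11.85, 11.87, 11.77 and 11.83 over 12 genes. Myd88 itself was 6.10, 5.91, 6.44 and 6.23, with knockout minus wild type at -0.19 under control and -0.21 under high-fat feeding. The position of its probes against the floxed segment was not analysed here, so this is no check of the deletion.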

How the data were processed

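RNA of total liver, pooled from 4 to 5 mice per group before labelling per the labels' protocols, was measured on 1 Affymetrix array per group. The authors deposited 1 log2 value per probe set and array, made by RMA with Affymetrix Expression Console as the submitters' processing notes state. No version, probe set library or genome build is given in these notes. RMA normalises arrays by quantiles and compresses differences of dim probe sets. Signal over background is unknown, since no scanner values or detection calls were used here, and so are scan batches.

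Of 41345 probe sets, 23521 had 1 gene symbol in the platform annotation, 1814 had several and 16010 none; the latter 2 kinds were left unnamed. All 34 members were found by Entrez identifier in RefSeq and 0 symbols changed. For 4 members, 2 probe sets existed. Differences are subtractions of log2 values between 2 arrays. The margin of an array is its log2 value minus the highest of the other 3. With 1 array per group there is no p-value, SD or interval, and genes were counted at 2-fold.

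The main counts use all 34 members, without a filter on low values, over 22180 genes. Of the members, 23 had a mean at or above the 40th percentile of genes (log2 3.47) and 11 did not; 5 of the 23 reached it only through the wild-type high-fat array. Alternatives were another probe set rule, cyclic loess or repeated quantile normalisation, median centring, that filter, a 1.5-fold limit, and leaving out Car3, Eno3 and Ldb3. The members, lists and comparisons were chosen with earlier results of these data known. The text could name all 34 members, from each of 16 marker lists up to 6 genes with the largest differences and any at 2-fold, and the 10 named coding genes outside the members with the largest wild-type high-fat margin. Named outside this rule, after their values were seen, were Myd88, Adipoq, Atp2a2, Lipf, Myod1, Myog, Myh3, Myh7, Myh13, Myl2, Myh6, Ucp1, Mir206 and Mir133b. R 4.3.3 with limma 3.58.1 gave the alternative normalisations, and Python 3.11.15 with pandas 2.3.3, NumPy 2.4.6 and matplotlib 3.10.9 the rest.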

Additional observations from a re-analysis of the deposited data

Results flagged for a closer look

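For 3 genes the diet difference had opposite signs in the genotypes and reached 2-fold in wild type. High-fat minus control diet, on the log2 scale, was 1.56 (wild type) and -0.27 (knockout) for Acta1, 1.39 and -0.026 for Ttn, and 1.12 and -0.34 for Myh4. Each rests on 2 single arrays per genotype, the difference between the genotypes was not tested, and the knockout value of Ttn is close to 0.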

How the results depend on the processing

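No paired analysis was possible because each group is 1 array and no result comes from a test. Of 70 counts recomputed under 7 alternatives, 63 stayed within 1.5 times. Many of the 63 are counts of 0 that stayed 0, so this total says little about stability. At 1.5-fold in place of 2-fold, the genes higher on high-fat diet in wild type numbered 12 in place of 6. Of all genes, 1.1% in place of 0.302% were so. Those lower in knockout on high-fat diet numbered 12 in place of 7, with 0.676% of all genes in place of 0.108%. Above every other array in wild type on high-fat diet were 9 in place of 5, with 0.0857% of all genes in place of 0.0316%. Genes higher on high-fat diet in knockout numbered 2 in place of 1, and genes higher in knockout than wild type on control diet 1 in place of 0. For these last comparisons the share of all genes at 1.5-fold was not computed. Under cyclic loess and repeated quantile normalisation 0 genes were 2-fold higher on high-fat diet in knockout, where Neb came to 0.97 and 0.98. With the mean of both probe sets, Ckm differed between genotypes on high-fat diet by -0.68 in place of -1.29. Without genes under the 40th percentile, Myh4 drops out. The counts of members at 2-fold were then 5 for diet in wild type, 6 for genotype on high-fat diet and 4 for the margin. Of the 13308 genes kept, 0.488%, 0.165% and 0.0376% were so. The member counts include Ttn and Atp2a1, which pass that filter only through their wild-type high-fat values, so it is no check on them. Without Car3, Eno3 and Ldb3 the median diet difference in wild type was 0.50 in place of 0.39. Of 111 recomputed values of genes at 2-fold, 0 reversed and 3 were no longer 2-fold. Many of the 111 could not change. Leaving out other genes keeps a value as it is, and so does averaging where a gene has a single probe set. The 11 members under that filter lie where RMA compresses differences, and signal over background cannot be judged from these values.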

Other observations

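Outside the 34 genes, the coding genes with the largest margin of the wild-type high-fat array over every other array were Rnase2a, Orm3, Oser1, Slc22a7, Usp17ld, Ndufb3, Vmn1r229, Ckmt2, Olfr1428 and Olfr9. Rnase2a, an eosinophil-type ribonuclease gene, had a log2 value of 2.98 on the wild-type control, 3.11 on the knockout control, 4.20 on the wild-type high-fat and 3.18 on the knockout high-fat array. It was the 1 gene of the 10 above 2-fold, at 2.04-fold over the next array. Orm3, an orosomucoid gene, was 3.49, 3.75, 4.69 and 3.82, and Slc22a7, an organic anion transporter gene of hepatocytes, was 6.30, 6.88, 7.69 and 6.85. Ckmt2 was the only one of the 10 in a muscle list. Of the 10 genes with the largest such margin among all 22180, 6 were of the 34, and of the 25 largest, 11; the 34 were listed with this pattern known.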
